A study of Mus musculus with 4 samples.

Results

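Tektins are coiled-coil proteins that form filaments along the doublet microtubules of cilia and flagella, where a tektin bundle runs inside the A-tubule of each doublet. All 5 mouse tektin genes are known to be active in male germ cells, and loss of Tekt2, Tekt3 or Tekt4 in mice is known to impair sperm motility. IGF2BP3 is an RNA-binding protein of the IGF2BP family, described as a reader of N6-methyladenosine (m6A) in mRNA. The question here was where, and with how much read support, IGF2BP3 was found on the mRNAs of the tektin family. The family comprised Tekt1, Tekt2, Tekt3, Tekt4 and Tekt5, chosen by name, which made 5 of the 18068 genes that held at least 1 read cluster on their own strand in either replicate. A cluster was counted for a gene when its centre lay inside the gene span of GENCODE M21 on mm10.

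The data came from enhanced crosslinking and immunoprecipitation sequencing (eCLIP-seq) of whole testes, with germ cells and somatic cells, from wild type C57BL/6 mice aged 8 weeks. There were 2 replicates, each made of 1 IP library (IGF2BP3 antibody) and 1 size-matched input library (SMInput, lysate RNA with no antibody). No mutant, treatment or antibody control was among the 4 samples. Each deposited table lists read clusters with a log2(fold change) of IP over SMInput and a −log10(P value) of that comparison, and a cluster was called significant when both reached 2. The study calls them biological replicates, while the sample labels do not say which mice each came from. Usable reads, worked out from the listed values, were 5133438 in the IP and 8706391 in the SMInput of replicate 1, and 4637612 and 16696122 in replicate 2. The labelled tissue was checked by the clusters of 12 marker genes.

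The 4 round spermatid markers (Acrv1, Spaca1, Tnp1 and Prm1) together held 42 clusters in replicate 1 and 41 in replicate 2. The spermatocyte markers Sycp3 and Piwil1 held 56 and 48. The Sertoli cell markers Sox9, Wt1 and Amh held 90 and 76, of which Wt1 alone gave 82 and 65, and Amh 1 and 3. The Leydig cell markers Cyp17a1, Star and Hsd3b6 held 17 and 20, with the fewest for Star, at 2 in each replicate. No marker of the 12 was without a cluster, but 18068 genes held at least 1, introns included, so this is a weak check of the labelled cells. In such a lysate, fewer cells with a tektin mRNA and less of that mRNA per cell cannot be told apart.

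All 5 tektin genes held clusters in both replicates, 83 in replicate 1 and 68 in replicate 2, or 151 in all. Of these, 4 clusters (4.82%) were significant in replicate 1, against 4.92% of all clusters in that table. In replicate 2, 9 clusters (13.2%) were significant, against 13.2% of all clusters. These shares are near the background, so the family as a whole did not stand out. The significant clusters joined into 10 sites in 4 genes, and Tekt2 was the member without any inside its span. The share of all genes with a call in either replicate was not worked out, so the 4 genes are a count only. A significant cluster in each replicate was found for 2 of the 5 genes, Tekt3 and Tekt5, compared with 35.2% of the 14251 genes that held clusters in both replicates. Among the 9106 genes with 5 or more clusters in each replicate, as every tektin gene had, this share was 51.5%.

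Only 1 site was significant in both replicates, and it lay at the stop codon of Tekt3. Of the 4 significant clusters of replicate 1, this 1 overlapped a significant cluster of replicate 2, against 33.0% of all significant clusters of replicate 1. Seen from replicate 2, it was 1 of 9, against 18.5% of all. The other significant tektin clusters were called in 1 replicate each. Counting error was wide for most of them. In replicate 2, 7 of the 9 significant clusters held fewer than 10 IP reads, and 4 of those rested on a single SMInput read, where 4 IP reads were enough to pass. In replicate 1, 1 of 4 held fewer than 10 IP reads, and 7 IP reads were needed against a single SMInput read.

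**Figure D1:**
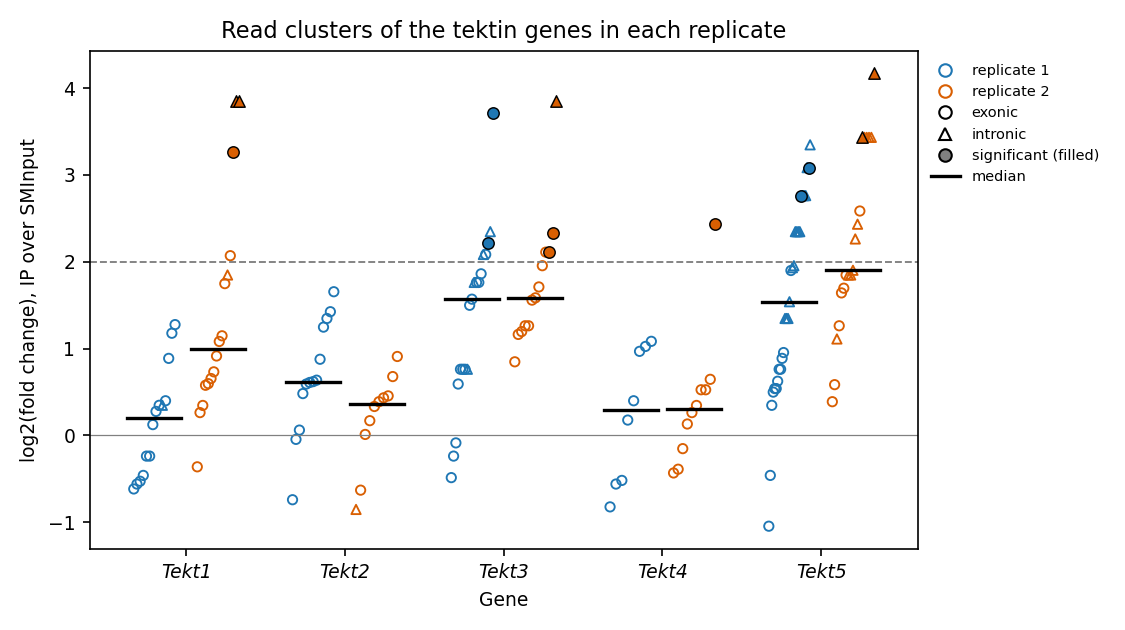
Each point is 1 read cluster of a tektin gene, with its log2(fold change) of IP over SMInput on the vertical axis, replicate 1 in blue and replicate 2 in orange (circles exonic, triangles intronic, filled points significant, black bars medians, dashed line at 2). The medians of Tekt3 and Tekt5 lie between 1.54 and 1.90, and those of Tekt1, Tekt2 and Tekt4 between 0.20 and 0.999.

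The median log2(fold change) over all clusters of a gene placed the family in 2 sets. Tekt5 had medians of 1.54 in replicate 1 and 1.90 in replicate 2 (mean 1.72 ± 0.26, SD, n = 2). By the mean, Tekt3 followed with 1.57 and 1.59 (1.58 ± 0.01). The means of these neighbours differed by less than the SD of Tekt5. Tekt3 was slightly higher in replicate 1, and Tekt5 was higher in replicate 2. Tekt1 had 0.20 and 0.999 (0.60 ± 0.56), Tekt2 had 0.62 and 0.36 (0.49 ± 0.18), and Tekt4 had 0.29 and 0.30 (0.30 ± 0.01). These 3 were not separated beyond the spread of Tekt1, while each of their values in either replicate was below both values of Tekt3 and of Tekt5. With 2 replicates no test between genes was made. Over 8727 protein-coding genes with 5 or more clusters in each replicate, the middle gene had a median of 1.42 in replicate 1 and 1.61 in replicate 2. Tekt3 was above 56.7% and 48.1% of these genes, and Tekt5 above 55.5% and 70.3%. Tekt2 was above 6.65% and 2.51%, and Tekt4 above 2.41% and 2.02%. Tekt1 was above 1.86% in replicate 1, the lowest of the family there, and 16.8% in replicate 2.

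The position of Tekt5 changed when introns were left out. Restricted to exonic clusters, its medians were 0.69 in replicate 1 and 1.64 in replicate 2 (1.17 ± 0.67). Those of Tekt3 were 1.499 and 1.57 (1.54 ± 0.05), so Tekt3 was higher in replicate 1 and Tekt5 in replicate 2, and their means differed by less than the SD of Tekt5. Among 6877 protein-coding genes with 5 or more exonic clusters in each replicate, Tekt3 was above 75.6% in replicate 1 and 68.8% in replicate 2, and Tekt5 above 25.3% and 72.5%. The other 3 genes ranked below the middle in exons too, though higher than over all clusters. Tekt1 was above 5.74% and 20.9%, Tekt2 above 22.7% and 8.06%, and Tekt4 above 9.63% and 6.37%. These ranks were not matched by region. Over all genes, 3′UTR clusters had medians of 1.76 in replicate 1 and 1.85 in replicate 2. CDS clusters, the kind most frequent in the tektin genes, had 0.76 and 0.93. Whether region bears on the ranks was not tested. The exonic medians of Tekt1 were 0.12 and 0.73, of Tekt2 0.62 and 0.39, and of Tekt4 0.29 and 0.30. The 2 sets seen over all clusters did not hold in exons. Tekt5 in replicate 1, at 0.69, was close to Tekt2 in that replicate and below Tekt1 in replicate 2. The lowest of the family in exons was therefore Tekt1 in replicate 1 and Tekt4 in replicate 2.

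Tekt3, whose product is a filament protein of the sperm flagellum, lies on the plus strand at chr11:63061654-63094964, and its 1 annotated mRNA of 1748 bases has 8 exons. It held 19 clusters in replicate 1 and 13 in replicate 2. In replicate 1, the cluster at chr11:63094809-63094878 in exon 8 had a log2(fold change) of 3.72 and a −log10(P value) of 9.41. It rested on 31 IP reads and 4 SMInput reads, which gave an exact Clopper-Pearson 95% interval of 2.22 to 5.68 for the log2(fold change). In replicate 2, the cluster at chr11:63094801-63094865 had a log2(fold change) of 2.11 and a −log10(P value) of 3.11. With 12 IP reads and 10 SMInput reads, its interval ran from 0.77 to 3.48. The pair shared 57 bases, had a mean of 2.91 ± 1.14 (SD, n = 2), and had overlapping intervals. Such intervals cover counting error only.

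Values at the 3′ end of Tekt3 rose along exon 8 towards the stop codon in each replicate. In replicate 1, the clusters from 5′ to 3′ had a log2(fold change) of 1.76, 1.86, 2.08 and 3.72. In replicate 2 they had 1.26, 1.56 and 2.11. The 2.08 cluster, next to the strongest one, missed the call with a −log10(P value) of 1.95. Neighbouring clusters can share reads, so these are not separate measurements. Within each replicate their counting intervals overlapped, and the first of replicate 2, on 4 IP reads, ran from −1.01 to 3.34. The rise is thus a description. The centre of the replicate 1 cluster fell on the base after the stop codon, in the 3′UTR, and that of the replicate 2 cluster lay 10 bases upstream, in the CDS. The stop codon at chr11:63094840-63094842 was inside both. The sequence is shown since it is the only site called in each replicate, and the capitals mark the stop codon followed directly by GGAC, a core of the usual m6A site. It was read on the plus strand at chr11:63094829-63094858.
Tekt3 stop codon: tgggctactgcTAGGGACcctgggaagagt

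Elsewhere on Tekt3, a cluster in the coding part of exon 3 at chr11:63073427-63073509 was significant in replicate 1, with a log2(fold change) of 2.22 (11 IP and 4 SMInput reads, interval 0.47 to 4.33). The overlapping cluster of replicate 2 had 2.11 from 6 IP and 5 SMInput reads and missed the call with a −log10(P value) of 1.75. The replicates thus differed little there, with fewer reads in replicate 2. A coding cluster in exon 6 at chr11:63083865-63083958 went the other way, with 2.33 in replicate 2 (14 IP and 10 SMInput reads, interval 1.06 to 3.66) and −0.24 for the overlapping cluster of replicate 1. The third call of replicate 2 was an intronic cluster at chr11:63087652-63087669 with a log2(fold change) of 3.85, from 4 IP reads and 1 SMInput read, and no cluster of replicate 1 overlapped it. In all, the interval lay above 0 for 7 of 16 Tekt3 clusters with known reads in replicate 1 and 9 of 13 in replicate 2. The other 3 Tekt3 clusters of replicate 1 had a negative log2(fold change) and unknown reads. Over all tektin genes, the interval lay above 0 for 19 of 67 clusters with known reads in replicate 1 and 22 of 62 in replicate 2.

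Tekt5, a tektin known mainly from sperm, lies on the minus strand at chr16:10357948-10395490 and has 7 exons in its main mRNA. Its clusters numbered 29 in replicate 1 and 19 in replicate 2, the most in the family, and 15 and 12 of them were intronic. The strongest exonic value was in the coding part of exon 1 at chr16:10395279-10395380, where replicate 1 had a log2(fold change) of 3.08 from 10 IP and 2 SMInput reads (interval 0.85 to 6.31). The overlapping cluster of replicate 2 had 1.70 from 9 IP and 10 SMInput reads (interval 0.22 to 3.15) and was not significant. The pair averaged 2.39 ± 0.98, and both intervals lay above 0. A coding cluster in exon 6 at chr16:10361260-10361289 was significant in replicate 1 alone, with 2.76 from 8 IP and 2 SMInput reads. The cluster adjoining it had 1.90 in replicate 1 and an overlapping partner of 1.85 in replicate 2, neither of them significant.

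The calls of Tekt5 in replicate 2 were a pair of touching clusters in intron 5 at chr16:10366550-10366615, with a log2(fold change) of 4.17 from 5 IP reads and 1 SMInput read and of 3.43 from 6 and 2. No cluster of replicate 1 overlapped them. The other high intronic values likewise rested on few reads. Over all intronic clusters, the called ones included, 9 of the 15 of replicate 1 and 5 of the 12 of replicate 2 rested on a single SMInput read. One intronic place stood apart in depth. In intron 3, a cluster at chr16:10383265-10383316 had 1.95 in replicate 1 (16 IP and 7 SMInput reads, interval 0.59 to 3.48), and the overlapping cluster of replicate 2 at chr16:10383213-10383334 had 1.90 (27 and 26 reads, interval 1.07 to 2.74). Their −log10(P value) was 2.58 and 6.22, so both missed the call only by the fold change. The pair averaged 1.93 ± 0.04, and 0 exons of any annotated GENCODE M21 transcript on that strand overlapped it. With 27 IP reads, the replicate 2 cluster was the deepest of Tekt5 in either replicate.

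Tekt1 lies on the minus strand at chr11:72344722-72362442, with 8 exons in its main mRNA, and is known from motile cilia as well as sperm. It held 14 clusters in replicate 1, with 0 significant, and 16 in replicate 2, with 3 significant. The best supported call was at the start codon in exon 2, at chr11:72359830-72359871, with a log2(fold change) of 3.26 and a −log10(P value) of 3.36 from 8 IP and 3 SMInput reads (interval 1.20 to 5.81). At the same place, replicate 1 had 1.28 from 10 IP and 7 SMInput reads (interval −0.26 to 2.91), its highest Tekt1 value. The place was thus the highest of the gene in replicate 1 and its highest exonic value in replicate 2, and a call in 1 of them. The other calls of replicate 2 were touching clusters in intron 5, at chr11:72352559-72352603, each with 3.85 from 4 IP reads and 1 SMInput read. A cluster at chr11:72361793-72361859 in replicate 1 had 1.18, and its overlapping partner in replicate 2 had 2.07 with a −log10(P value) of 1.95. Both centres lay in intron 1 of the main transcript and in the 5′UTR of another annotated transcript. The start codon site is shown as the only call of the gene in an exon, on the minus strand at chr11:72359842-72359871, with the start codon in capitals.
Tekt1 start codon: taaATGgccaagctactgcaatctccaccc

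Tekt4, whose loss in mice is known to slow sperm, lies on the plus strand at chr17:25454615-25476602, with 6 exons in its main mRNA. It held 8 clusters in replicate 1, with 0 significant, and 10 in replicate 2, with 1 significant. That cluster spanned 14 bases at the start of exon 2, chr17:25473736-25473749, and had a log2(fold change) of 2.43 and a −log10(P value) of 2.01 from 6 IP and 4 SMInput reads (interval 0.36 to 4.70). The overlapping cluster of replicate 1 spanned 4 bases and had −0.56, with a −log10(P value) of 0 and unknown reads. The replicates therefore differed in sign at the only Tekt4 call, but the negative value has no interval. The deepest cluster of Tekt4 was in the 5′UTR in replicate 1, with 30 IP and 25 SMInput reads, a log2(fold change) of 1.03 and an interval of 0.21 to 1.85, and its partner in replicate 2 had −0.39. The called 14 bases are printed as they hold AAACC, in capitals, a motif the study names.
Tekt4 exon 2, plus strand, chr17:25473736-25473749: gAAACCgagctgat

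Tekt2, needed for normal sperm motility in mice, lies on the minus strand at chr4:126322121-126325688 and has 11 exons in its main mRNA. It held 13 clusters in replicate 1 and 10 in replicate 2, and 0 were significant in either. In replicate 1, its clusters with known reads held a median of 15 IP reads, as did those of Tekt4, and 0 held fewer than 10. In replicate 2 the median was 9, and 4 of 8 held fewer than 10. Its deepest cluster in replicate 1, in exon 3, held 36 IP and 40 SMInput reads and had a log2(fold change) of 0.61, with an interval of −0.08 to 1.30. In replicate 2 the deepest, in exon 11, held 28 IP and 80 SMInput reads and had 0.33, with an interval of −0.34 to 0.97. The highest values were 1.66 in replicate 1, in exon 8 (13 IP and 7 SMInput reads), and 0.91 in replicate 2. The interval stayed below 2 for 6 of 11 clusters with known reads in replicate 1 and for 8 of 8 in replicate 2, so a fold change at the threshold was outside counting error for these clusters. A gene on the opposite strand overlaps Tekt2, and only clusters on the strand of Tekt2 were counted.

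**Figure D2:**
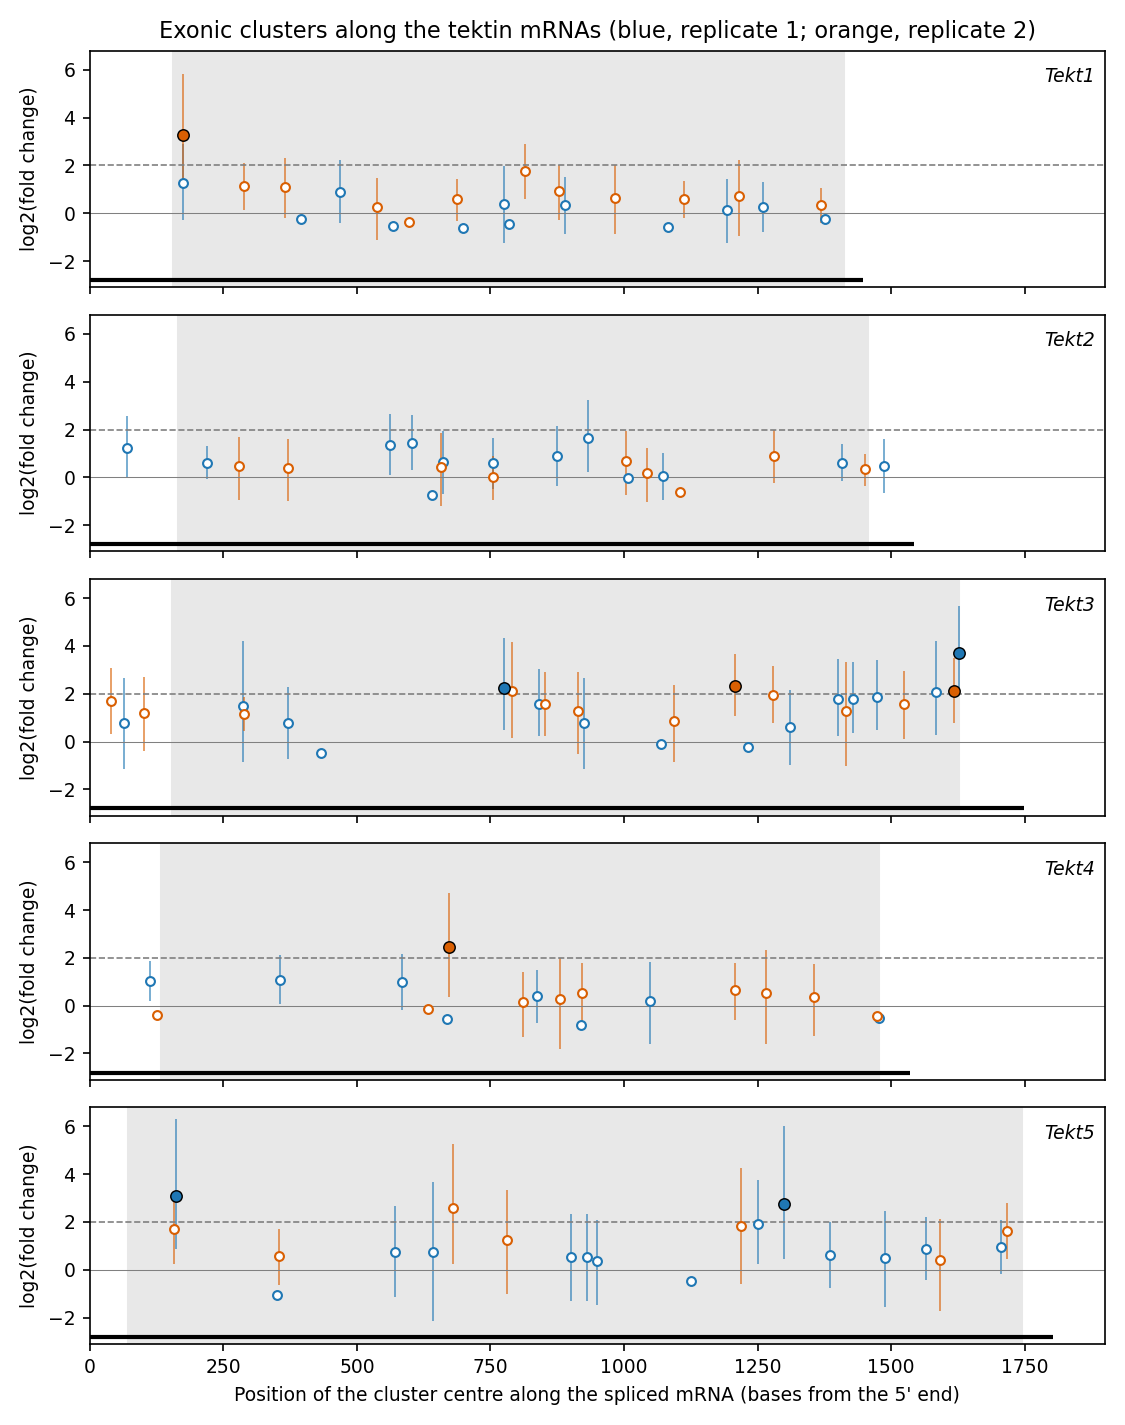
The 112 exonic clusters whose centre lies on the main mRNA of each gene are plotted at that centre, in bases from the 5′ end, against log2(fold change), with replicate 1 in blue and replicate 2 in orange (grey CDS, black bar mRNA, vertical lines exact 95% intervals for counting error where reads were known, filled points significant, dashed line at 2). Tekt3 reaches 3.72 and 2.11 at its stop codon, and Tekt1 reaches 1.28 and 3.26 at its start codon.

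Read by region, the tektin clusters lay mostly in coding sequence, 56 of 83 in replicate 1 (67.5%) and 45 of 68 in replicate 2 (66.2%). Over all clusters inside annotated transcripts, CDS made up 26.8% and 34.1%. Of the tektin CDS clusters, 3 were significant in replicate 1 and 4 in replicate 2, or 5.36% and 8.89%, against 5.28% and 7.96% of all CDS clusters. The medians of the tektin CDS clusters were 0.60 and 0.73, compared with 0.76 and 0.93 over all CDS clusters. In introns, 0 of 20 tektin clusters were significant in replicate 1, against 1.94% of all, and 5 of 17 in replicate 2, against 10.8%. These 5 made 3 joined places, each of few reads. In 3′UTRs, 1 of 3 tektin clusters was significant in replicate 1, against 19.4% of all 3′UTR clusters. In replicate 2 it was 0 of 2, against 34.5%.

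The 3′UTR, the region where calls were most frequent in the tables, was short in the main mRNA (longest CDS) of each tektin gene. It measured 35 bases in Tekt1, 58 in Tekt5, 60 in Tekt4, 85 in Tekt2 and 122 in Tekt3. Over 12292 protein-coding genes with clusters in both replicates, the median was 899 bases and the lower quartile 311. The 3′UTR of Tekt3, the longest of these 5 and the only one near a site called in each replicate, was longer than 9.95% of them, and that of Tekt1 longer than 3.28%. Other annotated transcripts were not measured, and the 2 clusters of Tekt4 in replicate 2 that counted as 3′UTR, at chr17:25476382-25476452 and chr17:25476502-25476570, did so by a transcript other than the main one. Whether this length bears on the calls was not tested.

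Motifs were counted on the strand of the cluster in windows of 100 genomic bases centred on the exonic clusters, 63 in replicate 1 and 51 in replicate 2. GGAC was in 44.4% of the tektin windows in replicate 1 and 41.2% in replicate 2, against 30.8% and 30.4% of all exonic windows, and the exact intervals of the tektin shares began at 31.9% and 27.6%. GAACA was in 11.1% and 21.6%, against 10.2% and 9.95%, with intervals that began at 4.59% and 11.3%. AAACC was in 7.94% and 7.84%, against 8.01% and 7.67%, and ACACA in 6.35% and 7.84%, against 9.29% and 8.89%. In the shorter windows of 50 bases, GGAC was in 25.4% and 17.6%, against 17.5% and 17.1%, and GAACA in 6.35% and 7.84%, against 5.01% and 4.64%. Windows of neighbouring clusters overlap, and the background windows were not matched to the tektin clusters by region, so the shares are a description. Among the significant exonic clusters, GGAC was in the windows of the Tekt3 stop codon, the Tekt1 start codon, Tekt4 exon 2 and Tekt5 exon 6, and in none of Tekt3 exons 3 and 6 and Tekt5 exon 1. The GGAC nearest to the Tekt5 exon 6 call, in capitals, lay just upstream of it on the mRNA, on the minus strand at chr16:10361290-10361319.
Tekt5 exon 6: atgctagcatgcaGGACccgacggcccaat

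Other proteins of the inside of sperm doublet microtubules gave a wider view of the same structure. All 19 genes of this list had clusters in both replicates. They held 685 clusters in replicate 1, of which 32 were significant (4.67%, against 4.92% of all clusters). In replicate 2 they held 498, of which 53 were significant (10.6%, against 13.2% of all clusters). A significant cluster was found for 11 genes in replicate 1, for 12 in replicate 2 and for 8 in each. For the 5 tektin genes these counts were 2, 4 and 2. Of all genes with clusters in both replicates, 35.2% had a call in each. Among genes with 5 or more clusters in each replicate it was 51.5%, so the 8 of 19 genes did not stand out. The share of all genes with a call in a single replicate was not worked out. The median over the 19 genes' own medians was 1.18 in replicate 1 and 1.20 in replicate 2. Cfap126, also called Flattop, was among the genes with the most calls, with 10 of 14 significant clusters in replicate 1 and 11 of 14 in replicate 2. Its medians were 3.27 and 3.16. No tektin gene came near the share of Cfap126, the highest being 3 of 13 for Tekt3 in replicate 2.

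Genes with the pattern most like each tektin gene were named by the distance over 4 values, the median and the highest log2(fold change) in each replicate, among the 8727 genes. Closest to Tekt3 were Rab43 (distance 0.05), Prom1 and Rabgap1, and closest to Tekt5 were Aebp2 (0.06), Mbtps1 and Arl14ep. Among the closest to Tekt2 were Hspa8 (0.15) and Izumo4, genes with low values in each replicate. Tekt1 was nearest to Tmco5 (0.42), Sema4c and Bspry, and Tekt4 to Nsmf (0.38), Spout1 and Prkcsh. The values at few reads repeat across genes (3.85 is 4 IP reads on 1 SMInput read in replicate 2), and the distances say nothing of the genes' function.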

How the data were processed

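The tables analysed cover IGF2BP3 eCLIP-seq of testes, where every one of the 2 replicates pairs an IP with an SMInput library. Per the submitters' notes and the study's methods, the authors trimmed reads with cutadapt, removed rRNA reads with Bowtie2, aligned the rest to mm10 with STAR, collapsed duplicates by molecular identifiers, called clusters with Clipper in each IP and compared it with the SMInput of the same replicate. The deposited log2 values are the authors' fold change of IP over SMInput, each scaled to its usable reads. On the −log10 scale, the deposited P values come from that same comparison by the authors. They read 0 where a cluster was not enriched and stop at 400.

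Clusters were given to the gene whose span in GENCODE M21 contained their centre on the same strand, and significant meant 2 or more in both values. Regions followed basic transcripts with 3′UTR taken before CDS, then 5′UTR, exons of non-coding transcripts and introns, and the stop codon counted as CDS. Exon numbers follow the transcript with the longest CDS. Library totals and read numbers were found as the whole numbers that return both listed values, by Fisher's exact test if any observed or expected number was under 5, and if not by a Yates-corrected chi-square. The procedure was tested on simulated data. A single pair of numbers was found for 67 of 83 and 62 of 68 tektin clusters, and the other 16 and 6 were listed at 0. An SMInput number of 1 may stand for no read. Sequences were read from the GRCm38 genome with pyfaidx 0.9.0.4. Intervals used scipy 1.17.1, and tables pandas 2.3.3 and numpy 2.4.6. The usable reads per library are given with the samples, and the reads of single clusters set the precision.

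The text names all members, every called cluster, the deepest cluster of members without a call, the 3 most alike genes and the 3 inner-protein genes with the most calls, except that some of these other genes are not reported here. Other clusters named (near misses, Tekt5 intron 3, the deepest Tekt4 cluster) were chosen after their values were seen. Members and lists were chosen with earlier results of these data known. Alternatives covered thresholds, P value adjustment, read minimum, gene assignment, overlap, region order, motif window and each replicate alone.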

Additional observations from a re-analysis of the deposited data

How the results depend on the processing

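The replicates were never pooled, and each rests on 1 IP and 1 SMInput library, so precision is set by the reads of single clusters, of which 34 in replicate 1 and 41 in replicate 2 held fewer than 10 IP reads. No paired analysis was possible because each deposited value already sets an IP against the SMInput of the same number, and no result comes from a test across samples. With both thresholds at 3, the significant clusters went from 4 to 1 in replicate 1 and from 9 to 1 in replicate 2, the sites called in both from 1 to 0 and the genes from 2 to 0. With both at 1, there were 24 and 32 clusters and 7 shared sites. A Benjamini-Hochberg adjusted P below 0.05 left 2 and 5 clusters. A minimum of 10 IP reads left 2 clusters in replicate 2 and 1 gene, Tekt3, with a call in each replicate, and 3 clusters in replicate 1. Each replicate alone gave 4 to 7 called sites and 2 to 4 genes. By the nearest start site, 4 and 13 clusters were assigned, and 1 and 4 of these lay outside the gene spans, all given to Tekt2, which thereby had a call in each replicate and raised the genes from 2 to 3. In exonic clusters alone, the median of Tekt3 was 1.54 and that of Tekt5 1.17. Clusters with a sum of 10 or more IP and SMInput reads gave 1.67 for Tekt3, 0.75 for Tekt4 and 1.19 for Tekt5. This also drops each cluster listed at a −log10(P value) of 0, whose reads are unknown, and for Tekt4 it dropped only those, 3 in each replicate and all with a negative log2(fold change). For the medians of Tekt3 and Tekt5 the cause was not tested. With CDS before 3′UTR, 3 in place of 5 clusters counted as 3′UTR. In windows of 50 bases, GGAC fell to 25.4% and 17.6%, and GAACA to 7.84% in replicate 2. The shares of all exonic windows fell too, to 17.5% and 17.1% for GGAC, and to 4.64% for GAACA in replicate 2. In replicate 2, the tektin share of GGAC was then close to that of all exonic windows. The cause was not tested. Across these settings and the other overlap rules, 20 values stayed within 1.5 times the reported count, the replicate SD or the counting interval. More values, 23, moved beyond these limits. The gene medians of each replicate alone are left out of the 20, since with 2 replicates each lies within their SD by construction.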

Other observations

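Replicates differed in 1 direction along Tekt1. Of the 14 pairs of overlapping Tekt1 clusters, 14 had the higher log2(fold change) in replicate 2, with a median difference of 0.84, and some pairs share a cluster. For Tekt2 this held for 2 of 9 pairs, with a median difference of −0.15, and for all tektin genes for 32 of 52 pairs (61.5%). Over all 93525 overlapping pairs of the tables, replicate 2 was higher in 58.8%, with a median difference of 0.18. The cause was not tested.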
